A study of Homo sapiens with 4 samples.

Results

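10 genes that serve the energy supply of muscle were followed in rhabdomyosarcoma cells with and without the ubiquitin ligase subunit SKP2. They were chosen by name: the creatine kinases CKM, CKB and CKMT2, the muscle isoforms PYGM, PFKM, PGAM2 and ENO3 of glycogen breakdown and glycolysis, the muscle AMP deaminase AMPD1, the oxygen carrier MB and the fatty acid transporter CD36. All 10 were among the 39323 genes listed. RD and JR1 are established lines of fusion-negative rhabdomyosarcoma, a tumor of cells committed to the muscle lineage that fail to mature. Each line was infected with a lentivirus carrying an shRNA against SKP2 (shSKP2.2, genotype given as SKP2 knockdown) or a control hairpin without a target (shSCR, genotype given as WT), and all cells were selected with puromycin and grown in medium with serum. There was 1 poly-A library per line and condition, 4 in all, and depletion rests on 1 hairpin. The level of a gene is its TPM (the share of a library's transcripts that come from the gene, with transcript length taken into account). With single libraries the spread between replicates is unknown, so values are compared without p-values.

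A change is the log2 ratio of shSKP2.2 to shSCR within a line, taken after 1 TPM was added to both levels, which makes the change of a weakly expressed gene look smaller than its ratio. The targeted SKP2 went in RD from 92.8 to 7.40 TPM and in JR1 from 46.5 to 2.72 TPM. Short structural RNAs took between 50.1% and 64.9% of the TPM, with the higher share in the shSKP2.2 library of each line. For 12985 genes the mean TPM was 1 or more. These are called tested genes here, and their median change was -0.27 for RD and -0.21 for JR1. Values relative to these medians are given as well, and also rescaled values, that is after the structural RNA genes were removed and the TPM of the other genes brought back to the same total. After rescaling, 14736 genes reached this mean, and their medians were 0.10 for RD and 0.03 for JR1. Shares of tested genes on rescaled TPM refer to these. How many reads stand behind a TPM is unknown. Of the markers of the myogenic lineage, 6 of 7 reached 1 TPM, and MYF5 was listed at 0 in all libraries. Their summed TPM was higher in the depleted library of each line, at 571 against 403 in RD and 796 against 562 in JR1. The largest part of these sums was CHRNA1, at 314 against 196 TPM in RD and 425 against 284 TPM in JR1. DES was lower in JR1, at 36.0 against 51.3 TPM. Cardiac markers summed to at most 20.3 TPM, most of it NKX2-5. Neuronal markers summed to 83.8 and 103 TPM in RD, most of it NEFL (68.3 and 94.9 TPM), and to 17.5 and 13.0 TPM in JR1, most of it the enolase ENO2.

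Muscle cells spend ATP in bursts, and several systems refill it. Creatine kinase moves phosphate between creatine and ADP, glycogen phosphorylase and the glycolytic enzymes supply ATP from stored and circulating sugar, and AMP deaminase removes AMP when ATP runs low. Myoglobin stores and carries oxygen, and CD36 helps fatty acids across the membrane. Many of these enzymes exist as isoforms from separate genes, and a maturing muscle fiber exchanges the form used in embryonic or other tissues for the muscle form, as when CKM takes over from CKB.

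With SKP2 depleted, 7 of the 10 genes were listed with higher TPM in both lines (CKM, PYGM, PGAM2, AMPD1, MB, CD36 and CKMT2). Levels of CKMT2 in both lines, and of PGAM2 in RD (0.16 and 0.26 TPM), were too low to read a direction from. The remaining 3 had lower TPM in both (CKB, PFKM and ENO3). How many of all tested genes were higher in both lines was not counted. In such bulk libraries a change in the number of expressing cells and a change in RNA per cell cannot be told apart. The 10 genes had a median change of 0.18 for RD and 0.41 for JR1. It was 0.71 and 0.83 with 0.1 TPM added, and it turned to -0.20 and -0.36 over the 4 of them with a mean of at least 5 TPM. In RD, 1 of the 10 was higher by at least 2-fold on the scale with 1 TPM added, namely CD36, where 1.08% of all tested genes were, and 0 were lower by that much, where 7.37% of the tested genes were. In JR1, 3 of the 10 were higher by at least 2-fold (CKM, PGAM2 and CD36), against 1.78% of the tested genes, and 0 were lower, against 9.05%. PGAM2 is not a tested gene, and 2 of the 7 tested members passed. On rescaled TPM the genes past 2-fold were CKM, AMPD1 and CD36 in RD, with 3.77% of all tested genes higher and 3.41% lower by this much. In JR1 they were CKM, PGAM2, AMPD1 and CD36, with 4.71% of all tested genes higher and 6.73% lower. Only 7 of the 10 reached the mean of 1 TPM. CKMT2, PGAM2 and AMPD1 did not, and CD36 reached it only through its shSKP2.2 libraries. On rescaled TPM 9 of the 10 reached it, with PGAM2 and AMPD1 also doing so only through shSKP2.2 libraries. The 10 genes were listed with results of these libraries known, so these counts describe the genes and are no evidence for the group.

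**Figure D1:**
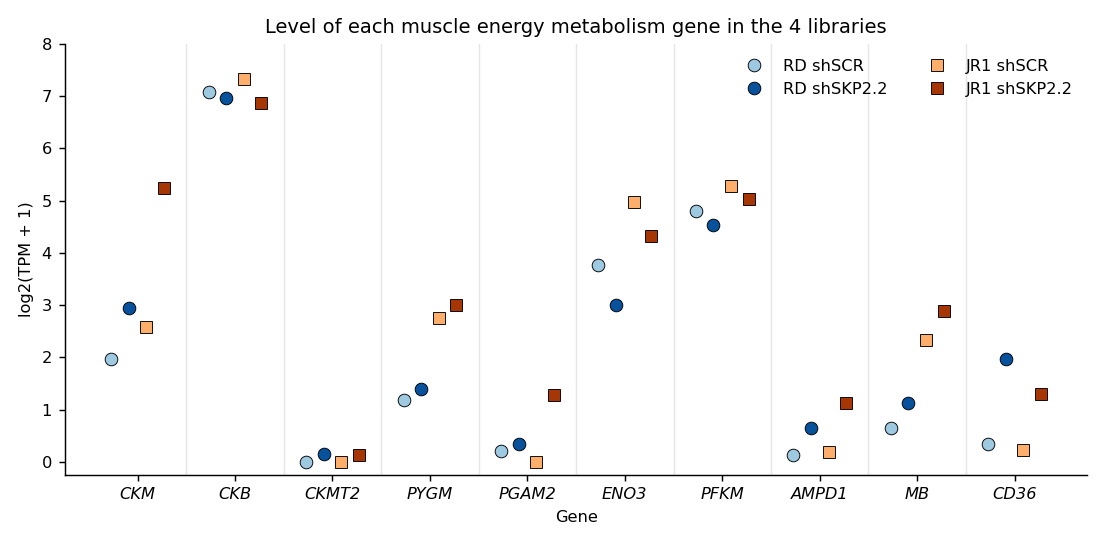
Level of each of the 10 genes as log2(TPM + 1) on the vertical axis, with 1 point per library (circles RD, squares JR1, pale shSCR, dark shSKP2.2). CKB stood highest of the 10 in all 4 libraries, and CKM came up from 5.01 to 36.7 TPM in JR1.

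CKM, the cytosolic creatine kinase of muscle, lies on chromosome 19 from base 45306413 to base 45322875 (GRCh38). It had 2.92 TPM in RD shSCR, 6.65 TPM in RD shSKP2.2, 5.01 TPM in JR1 shSCR and 36.7 TPM in JR1 shSKP2.2. Both depleted libraries stood above both controls. The ratio of TPM was 2.28 for RD and 7.33 for JR1, and the change was 0.96 and 2.65. Set against the median of the tested genes, the change was 1.23 in RD and 2.86 in JR1. The change of CKM in JR1 was thus 1.68 larger than in RD. This difference between the lines was not tested, with 1 library in each cell of the design.

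CKB, the creatine kinase first described in brain, lies on chromosome 14 from base 103519667 to base 103522833. It had 135 TPM in RD shSCR, 124 TPM in RD shSKP2.2, 159 TPM in JR1 shSCR and 116 TPM in JR1 shSKP2.2. These are the highest levels of the 10 genes, above at least 96.4% of all tested genes in each library. The change was -0.13 in RD and -0.46 in JR1. Relative to all tested genes it was 0.14 in RD and -0.24 in JR1, so the direction in RD depended on the scaling. CKMT2, the mitochondrial creatine kinase of striated muscle on chromosome 5, was listed at 0 in both controls and at 0.11 TPM in RD shSKP2.2 and 0.10 TPM in JR1 shSKP2.2. At this level neither a ratio nor a direction can be read. CKMT2-AS1, which overlaps it, had between 1.75 and 2.65 TPM.

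Within the creatine kinase family (CKM, CKB, CKMT1A, CKMT1B and CKMT2) the share of CKM in the summed TPM went from 2.06% to 5.10% in RD and from 3.05% to 24.1% in JR1. A share within a library does not move when the library is rescaled. The share of CKB went from 96.9% to 75.8% in JR1, whereas in RD it was 95.2% in shSCR and 94.7% in shSKP2.2. In RD the gain of CKM was matched mainly by the ubiquitous mitochondrial forms, as CKMT1A and CKMT1B held 1.11% and 1.63% of the family in shSCR, and CKMT1A was listed at 0 and CKMT1B held 0.0843% in shSKP2.2. Those genes are near copies of each other: 84.4% of the 100-base words in the canonical transcript of either occur in the other, so their TPM are uncertain one by one. No such word of CKM, CKB or CKMT2 occurs in a transcript of another gene in GENCODE release 44.

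**Figure D2:**
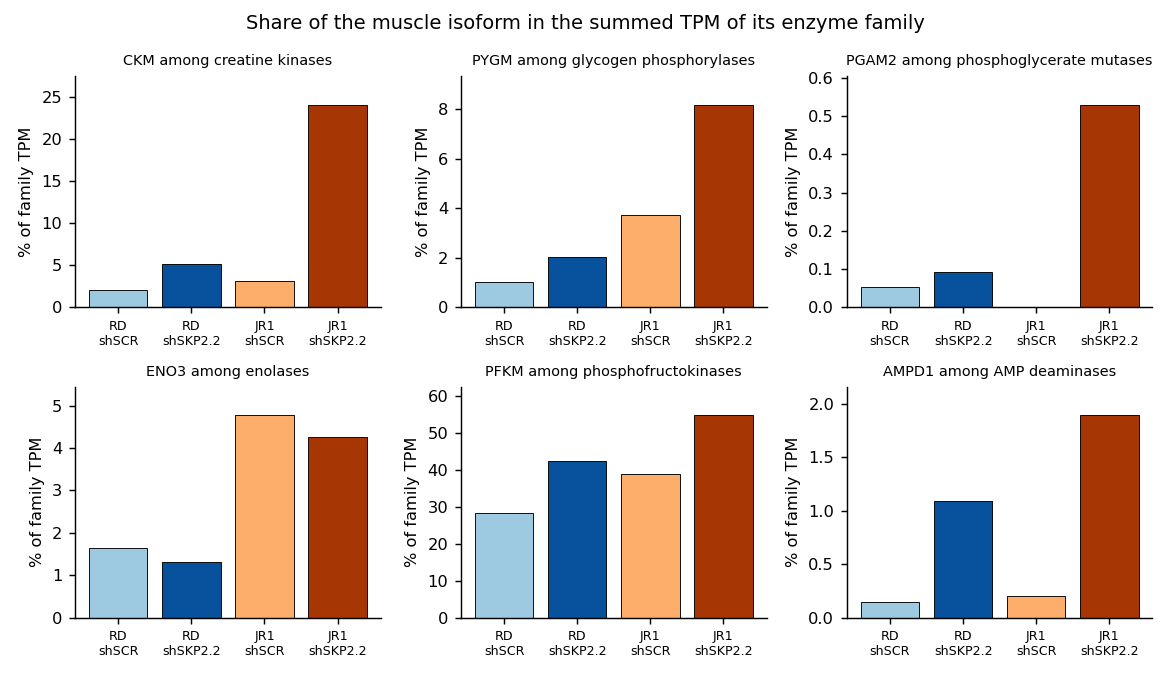
Share of the muscle isoform in the summed TPM of its enzyme family (vertical axis, in %, starting at 0 with a scale of its own per panel) in the 4 libraries. The bars of 5 of the 6 families were higher in shSKP2.2 than in shSCR in both lines, and those of ENO3 were lower. In RD those of PGAM2 rest on 0.16 and 0.26 TPM.

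PYGM, the muscle glycogen phosphorylase that releases glucose units from glycogen, lies on chromosome 11. Its level was 1.28 TPM in RD shSCR, 1.62 TPM in RD shSKP2.2, 5.70 TPM in JR1 shSCR and 6.99 TPM in JR1 shSKP2.2, a change of 0.20 in RD and 0.25 in JR1. The JR1 libraries both stood above the RD libraries, and the depleted library was the higher in each line. The forms of other tissues were lower instead: PYGL, the liver form, went in RD from 41.7 to 20.6 TPM and in JR1 from 42.9 to 13.9 TPM. PYGB, the brain form, went in RD from 85.7 to 57.1 TPM and in JR1 from 104 to 64.4 TPM. The share of PYGM in the 3 forms went from 0.994% to 2.04% in RD and from 3.74% to 8.19% in JR1. PYGB gained more, 5.38 percentage points in RD and 7.34 in JR1, as PYGL lost share. The summed TPM of the 3 went from 129 to 79.3 in RD and from 152 to 85.3 in JR1.

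PFKM, the muscle phosphofructokinase that commits sugar to glycolysis, lies on chromosome 12 and was the second highest of the 10 in RD, after CKB. It had 27.0 TPM in RD shSCR, 22.3 TPM in RD shSKP2.2, 38.1 TPM in JR1 shSCR and 31.7 TPM in JR1 shSKP2.2. With TPM as deposited the change was -0.27 for RD and -0.26 for JR1. Relative to all tested genes it was 0.00 and -0.04, and on rescaled TPM 0.12 and 0.02. Its direction thus depended on the scaling. PFKM overlaps SENP1, which had between 4.95 and 7.87 TPM, and an exchange of reads was not tested. The other forms were lower under each of these scalings: PFKL, the liver form, stood at -1.07 in RD and at -1.04 in JR1, and PFKP, the platelet form, at -1.19 and -1.28. On rescaled TPM these changes were -0.70 and -0.78 for PFKL and -0.82 and -1.06 for PFKP. The share of PFKM in the family therefore went from 28.2% to 42.3% in RD and from 38.9% to 54.8% in JR1, a gain of 14.1 and 15.8 percentage points. No other muscle isoform gained as much in RD.

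PGAM2, the muscle phosphoglycerate mutase, lies on chromosome 7 from base 44062727 to base 44065567, inside the span of DBNL. It had 0.16 TPM in RD shSCR, 0.26 TPM in RD shSKP2.2 and 1.41 TPM in JR1 shSKP2.2, and it was listed at 0 in JR1 shSCR. The JR1 shSKP2.2 library stood apart from the other 3, at a change of 1.27. PGAM1, the widely expressed form, had between 265 and 305 TPM, and PGAM2 made up at most 0.530% of both forms. DBNL had between 9.32 and 15.3 TPM and was lower in the depleted library of each line. Whether reads of DBNL entered the value of PGAM2 was not tested.

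ENO3, the muscle enolase, on chromosome 17 from base 4949182 to base 4957131, was lower with shSKP2.2 under each scaling. It had 12.5 TPM in RD shSCR, 7.05 TPM in RD shSKP2.2, 30.5 TPM in JR1 shSCR and 19.0 TPM in JR1 shSKP2.2. The change was -0.75 and -0.65 in RD and JR1. Relative to all tested genes, it was -0.48 and -0.44. ENO1, the widely expressed form, went in RD from 733 to 524 TPM and in JR1 from 596 to 419 TPM. Its changes of -0.48 and -0.51 were smaller in size than those of ENO3. The share of ENO3 in the 3 enolases went from 1.65% to 1.31% in RD and from 4.77% to 4.26% in JR1. ENO3 was thus the muscle isoform whose share of its family was lower with shSKP2.2 in both lines, and the other 5 were higher.

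AMPD1, the muscle AMP deaminase on chromosome 1, had 0.09 TPM in RD shSCR, 0.56 TPM in RD shSKP2.2, 0.14 TPM in JR1 shSCR and 1.19 TPM in JR1 shSKP2.2. Both depleted libraries stood above both controls, at a change of 0.52 in RD and 0.94 in JR1. The ratio of TPM was 6.22 for RD and 8.5 for JR1, but it rests on control levels near the last printed decimal. AMPD2, the form found in many tissues, went in RD from 55.9 to 43.0 TPM and in JR1 from 60.7 to 51.6 TPM. AMPD3 went in RD from 5.41 to 7.58 TPM and in JR1 from 8.23 to 10.1 TPM. The share of AMPD1 in the family went from 0.147% to 1.09% in RD and from 0.203% to 1.89% in JR1. AMPD3 gained more share, from 8.81% to 14.8% in RD and from 11.9% to 16.1% in JR1, and the share of AMPD2 was lower.

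MB, which encodes myoglobin, lies on chromosome 22 and had 0.56 TPM in RD shSCR, 1.18 TPM in RD shSKP2.2, 4.01 TPM in JR1 shSCR and 6.38 TPM in JR1 shSKP2.2. The change was 0.48 in RD and 0.56 in JR1, so the lines differed more from each other than the conditions did. CYGB, a globin of many tissues, did not reach 1 TPM in any library, and NGB, the globin of neurons, was listed at 0 in all of them.

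CD36, on chromosome 7 from base 80602207 to base 80679277, had 0.26 TPM in RD shSCR, 2.93 TPM in RD shSKP2.2, 0.17 TPM in JR1 shSCR and 1.45 TPM in JR1 shSKP2.2. Both depleted libraries stood above both controls. The ratio of TPM was 11.3 for RD and 8.53 for JR1, and the change was 1.64 in RD and 1.07 in JR1. With 1 TPM added and no rescaling, it was the only one of the 10 genes past 2-fold in both lines. The plain ratios of CKM and AMPD1 were above 2 in both lines as well. CD36 is also known from fat cells, blood vessels and macrophages. The summed TPM of 5 adipocyte markers was at most 0.24, with ADIPOQ and LEP listed at 0, and that of 5 macrophage markers was at most 1.10. Of 5 endothelial markers only TEK reached 1 TPM, KDR was listed at 0, and their sum was lower in the depleted library of each line, at 3.83 against 6.65 in RD and 2.69 against 5.81 in JR1. FABP3, the fatty acid binding protein of heart and skeletal muscle, was higher than CD36 in all libraries and differed by -0.21 (RD) and -0.23 (JR1) on the log2 scale, and after rescaling of 0.18 and 0.06.

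**Figure D3:**
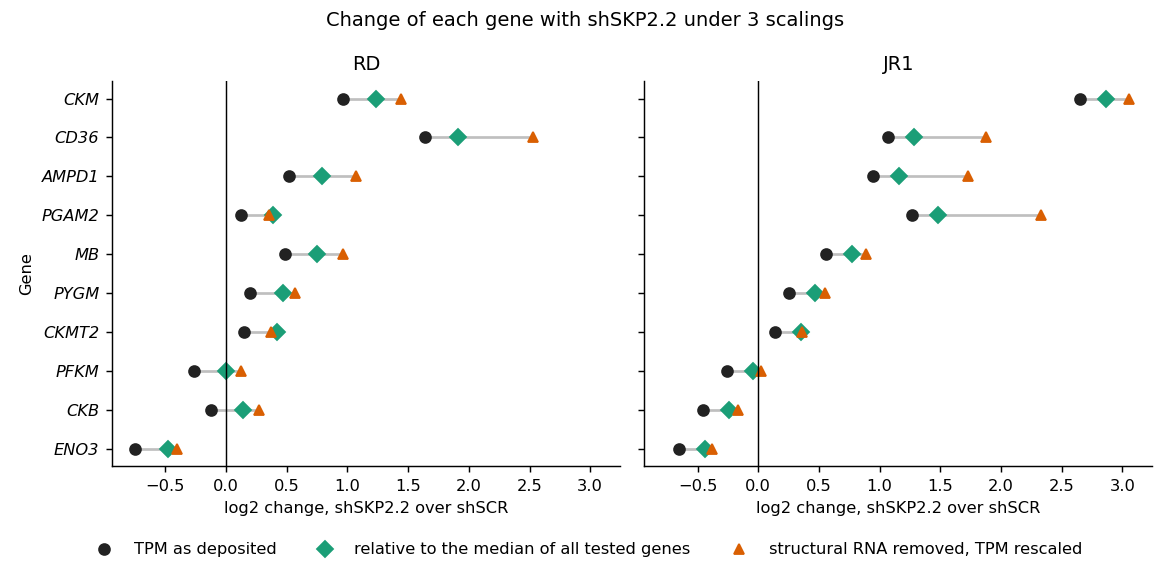
Change of each of the 10 genes with shSKP2.2 (horizontal axis, log2) in RD and JR1, with TPM as deposited (circles), centred on the tested genes (diamonds) and with structural RNA genes taken out (triangles). ENO3 stayed below 0 under each, PFKM and, in RD, CKB crossed 0, and the other genes were above 0 in both lines.

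The 250 bases before the transcription start (for CD36, of its first listed start) are shown for CKM and CKB. With TPM as deposited, CKM was higher and CKB lower with shSKP2.2 in both lines, but the sign of CKB in RD depended on the scaling. The same bases are shown for PGAM2, AMPD1 and CD36, which had the lowest control levels among the genes past 2-fold on any scaling. They were taken from RefSeq on GRCh38.p14 and are written 5′ to 3′ on the strand of the gene. Capitals mark CAGCTG and CAGGTG (or CACCTG, the same word on the other strand), which are forms of the E-box that MYOD and MYOG can bind, and the consensus of the muscle factor family MEF2.
CKM, chr19:45322876-45323125, minus strand: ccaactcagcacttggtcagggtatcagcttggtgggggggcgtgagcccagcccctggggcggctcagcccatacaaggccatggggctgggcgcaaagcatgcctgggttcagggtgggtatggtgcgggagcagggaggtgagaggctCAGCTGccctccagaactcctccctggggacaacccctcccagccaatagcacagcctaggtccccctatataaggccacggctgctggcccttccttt
CKB, chr14:103522831-103523080, minus strand: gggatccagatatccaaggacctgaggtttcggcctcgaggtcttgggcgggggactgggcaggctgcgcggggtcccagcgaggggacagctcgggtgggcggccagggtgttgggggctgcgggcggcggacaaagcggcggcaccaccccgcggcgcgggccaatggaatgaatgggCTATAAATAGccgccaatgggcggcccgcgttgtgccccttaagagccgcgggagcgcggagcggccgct
PGAM2, chr7:44065568-44065817, minus strand: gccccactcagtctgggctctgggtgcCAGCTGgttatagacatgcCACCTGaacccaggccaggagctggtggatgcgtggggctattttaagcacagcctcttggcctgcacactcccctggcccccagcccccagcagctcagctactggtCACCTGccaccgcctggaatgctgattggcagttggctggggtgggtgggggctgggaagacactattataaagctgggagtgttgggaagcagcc
AMPD1, chr1:114695547-114695796, minus strand: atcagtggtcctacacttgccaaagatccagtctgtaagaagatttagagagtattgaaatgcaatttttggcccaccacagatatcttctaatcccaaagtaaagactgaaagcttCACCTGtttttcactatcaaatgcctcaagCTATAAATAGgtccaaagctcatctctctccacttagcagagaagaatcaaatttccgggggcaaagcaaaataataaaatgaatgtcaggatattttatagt
CD36, chr7:80601957-80602206, plus strand: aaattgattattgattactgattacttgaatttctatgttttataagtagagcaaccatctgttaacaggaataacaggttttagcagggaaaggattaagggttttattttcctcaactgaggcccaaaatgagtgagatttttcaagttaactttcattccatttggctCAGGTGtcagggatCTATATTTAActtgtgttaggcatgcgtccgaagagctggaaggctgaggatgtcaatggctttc

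CKM held CAGCTG from base 99 to base 94 before the start. PGAM2 held CAGCTG from base 223 to base 218 and CACCTG at bases 204 to 199 and 96 to 91. AMPD1 and CD36 each held an E-box and a MEF2 match in the windows shown. CD36 has 6 windows in the table, and the other 5 held no match. CKB, with lower TPM in both depleted libraries, also held a MEF2 match, from base 70 to base 61. In CKB and AMPD1 the matched letters CTATAAATAG include TATAAA, the word of a TATA box. Matches of different motifs did not overlap each other. Among all 35116 windows of this length, 14.0% held CAGCTG, 17.5% CAGGTG or CACCTG, 2.80% the MEF2 consensus and 30.9% at least 1 of them. Of the 23 windows of 9 members (PYGM had none in the table), 34.8% did, which is close to that share. Counted by gene, 8 of these 9 members held a match in at least 1 window, CKMT2, ENO3 and MB among them. Members differ in their number of windows, and the share of all genes with a match was not counted. PFKM held none in its 7 windows. A match gives letters, not binding.

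RD and JR1 differed in these genes before any depletion. In shSCR, PYGM, MB and ENO3 were higher in JR1 than in RD by at least 2-fold on the scale with 1 TPM added, where 3.45% of all tested genes were. The ratio of TPM was 4.45 for PYGM, 7.16 for MB and 2.43 for ENO3. In shSKP2.2 the same genes and CKM were, where 2.7% of all tested genes were. The ratio was 5.52 for CKM, 4.31 for PYGM and 5.41 for MB, and the log2 difference of ENO3 was 1.32. CKM had a log2 difference of 0.62 between the lines in shSCR and of 2.30 in shSKP2.2. CD36 was the lower in JR1 in both conditions, at a log2 difference of -0.11 in shSCR and -0.68 in shSKP2.2. Each line and condition is 1 library, so line and library cannot be told apart.

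The wider metabolism was read from 7 lists with 121 genes in all, of which 91 were tested. Their median change was -0.28 in RD and -0.27 in JR1, close to the -0.27 and -0.21 of all tested genes. With TPM as deposited, 1 was higher and 7 were lower by at least 2-fold in RD, beside 1.08% and 7.37% of all tested genes. In JR1 it was 2 higher and 9 lower, beside 1.78% and 9.05%. The split depended on the scaling: on rescaled TPM, where 100 of the list genes were tested, 3 were higher and 3 lower in RD, and 9 higher and 7 lower in JR1. Of all tested genes on that scale, 3.77% were higher and 3.41% lower in RD, and 4.71% and 6.73% in JR1. As deposited, the genes higher by this much were CD36 in RD and CKM and CD36 in JR1. After rescaling, those in JR1 were CKM, PGAM2, AMPD1 and CD36 of the 10, and also PGM1, SLC2A1, PPP1R3B, PPP1R3C and NT5C1A. Of these, PGAM2, AMPD1 and NT5C1A were not tested genes as deposited. On rescaled TPM they reached the mean of 1 TPM, as CD36 did, only through shSKP2.2 libraries. None of these genes had more than 0.26 TPM in a control library as deposited. Of the 3 genes lower in RD after rescaling, CKMT1B and FABP5 were not tested genes as deposited. They reached the mean of 1 TPM only through RD shSCR, where they had 2.32 and 2.29 TPM as deposited. Counts past 2-fold are given for each list as deposited and then rescaled, apart from the globin list. There MB was the only tested gene, and it did not pass 2-fold under either scaling. Rescaled counts rest on the genes tested on that scale. These were 6 for phosphocreatine, 20 for glycogen, 26 for glycolysis, 25 for fatty acids and 11 for the regulators.

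In the phosphocreatine list, with 5 of 8 genes tested, GATM, which makes the precursor of creatine, had the highest mean change outside the 10 (0.35 in RD and 0.50 in JR1). SLC6A8, the creatine transporter, had the lowest, in RD from 34.0 to 18.2 TPM and in JR1 from 36.4 to 19.0 TPM. As deposited, 0 genes of this list passed 2-fold in RD, and 1 was higher and 0 lower in JR1. On rescaled TPM 1 was higher and 1 lower in RD, and 1 was higher and 0 lower in JR1. The lower one in RD was CKMT1B, which was not a tested gene as deposited. In glycogen metabolism, with 19 of 22 tested, 1 gene in RD and 4 in JR1 were lower by at least 2-fold and 0 were higher as deposited, whereas on rescaled TPM it was 0 in RD either way, and 3 higher and 3 lower in JR1. PGM1, which links glycogen to glycolysis, stood highest at 0.48 in RD and 0.94 in JR1, and PYGL lowest at -0.98 and -1.55. In glycolysis, with 23 of 32 tested, 3 genes were lower by at least 2-fold in each line and 0 were higher as deposited, and on rescaled TPM it was 0 in RD either way, and 2 higher and 2 lower in JR1. SLC2A1, a glucose transporter, stood highest there, in RD from 61.5 to 73.8 TPM and in JR1 from 34.7 to 63.3 TPM, and PFKP lowest.

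In the adenine nucleotide list, with 9 of 11 tested, AMPD3 stood highest and HPRT1, a purine salvage enzyme, lowest at -0.82 in RD and -0.89 in JR1, and 0 genes passed 2-fold as deposited. On rescaled TPM, with 11 tested, 1 was higher by that much in RD (AMPD1) and 2 were in JR1 (AMPD1 and NT5C1A). Neither AMPD1 nor NT5C1A was a tested gene as deposited. In fatty acid uptake and oxidation, with 23 of 29 tested, CD36 was the gene higher by at least 2-fold in both lines under either scaling. It was a tested gene only through its shSKP2.2 libraries. As deposited, 1 gene in RD and 2 in JR1 were lower by that much. On rescaled TPM it was 2 in each line, with FABP5, not a tested gene as deposited, among those in RD. ACADVL, which starts the oxidation of very long chains, was the lowest, in RD from 50.3 to 16.0 TPM and in JR1 from 47.2 to 17.6 TPM. ACACB, the acetyl-CoA carboxylase at the mitochondrion, had the highest mean change outside the 10, with -0.03 in RD and 0.06 in JR1, and 0.26 and 0.31 on rescaled TPM. Among the regulators, with 11 of 16 tested, ESRRA, a nuclear receptor of mitochondrial genes, stood highest at 0.45 in RD and 0.58 in JR1. PRKAG1, a subunit of the AMP-activated kinase, stood lowest at -1.06 in RD and -0.68 in JR1, and 2 genes of this list in RD and 0 in JR1 were lower by at least 2-fold as deposited, and 0 in both lines on rescaled TPM. PPARGC1A, a coactivator of ESRRA in muscle, had at most 0.14 TPM.

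**Figure D4:**
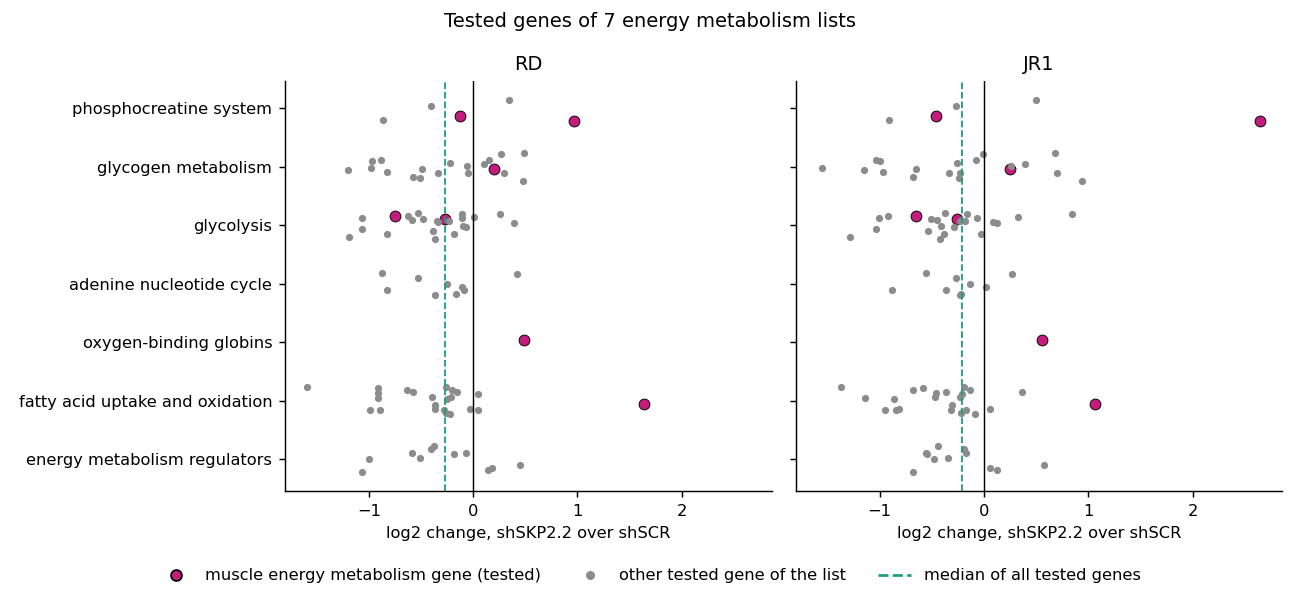
Change with shSKP2.2 (horizontal axis, log2, TPM as deposited) of the 91 tested genes of 7 lists, 1 point per gene with vertical scatter for visibility only. CKM and CD36 stood to the right of all other tested genes of their lists in both lines. CD36 is a tested gene only through its shSKP2.2 libraries, and genes under the mean of 1 TPM are not shown.

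The profiles over the 4 libraries were compared with those of the other tested genes, as log2(TPM + 1) centred on the mean of each gene. The genes nearest to CKM were MEF2C, a transcription factor of muscle, TNNC2, the calcium sensor of fast muscle fibers, and APOBEC2, a protein of striated muscle, at Euclidean distances of 0.30, 0.32 and 0.46. MEF2C went in RD from 0.98 to 2.05 TPM and in JR1 from 1.76 to 18.7 TPM, and TNNC2 from 2.53 to 6.05 TPM and from 3.21 to 29.1 TPM. The nearest to CKB were YY2, RNF215 and RAMP1, at distances of at most 0.0415. The nearest to CD36 were CYP1A1, LOC107985290 and MDGA1, at 0.35 to 0.41. With 4 libraries such nearness is a description of order and size only.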

How the data were processed

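RNA-seq was measured in 4 libraries, RD and JR1 with shSCR or shSKP2.2, grouped by their titles. Per the labels and methods, the authors made directional poly-A libraries, used STAR 2.7.9a for alignment to GRCh38, and RSEM 1.3.2 for the estimate of expression. The deposited unit is TPM, with 2 decimals and the same total in every library. TPM hold no read counts, so depth and the precision of a value are unknown. The annotation release and the strand setting of the counting are not given in the sources used here.

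TPM were used as deposited. Changes were log2 ratios within a line with 1 TPM added, and genes whose TPM averaged 1 or more in the 4 libraries were set against a limit of 2-fold, which stands in for a test (this was done on the rescaled values anew). The 10 members were counted in full, also those under this mean. For rescaled values, 655 short structural RNA genes were removed by symbol. The share of a muscle isoform is its percent of the summed TPM of its family. The members and lists were chosen with earlier results of these data known. Named genes are the 10 members, their isoform families, SKP2, in each list the tested gene outside the 10 with the highest and the lowest mean change of both lines, and the 3 genes nearest in profile to CKM, CKB and CD36. Genes named outside this rule (overlapping genes, FABP3, CYGB, NGB, PPARGC1A and those of glycogen handling in the closing section) were picked with their values in view. Markers of myogenic, cardiac, adipocyte, endothelial, macrophage and neuronal cells were read as summed TPM. Alternatives were a pseudocount of 0.1 TPM, centring on the median of tested genes, rescaling, a minimum mean of 5 TPM, no filter, a limit of 1.5-fold and 1 TPM added before shares. Promoter letters came from RefSeq, and words of 100 bases from GENCODE release 44 transcripts. The code was tested on simulated data. Python 3.11.15, numpy 2.4.6, pandas 2.3.3 and matplotlib 3.10.9 were used. No protein sequences were used here.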

Additional observations from a re-analysis of the deposited data

Results flagged for a closer look

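Among the isoforms of the 6 families and the genes named as highest or lowest of a list, changes of opposite sign in the lines were found for 2. CKMT1A, a mitochondrial creatine kinase outside the 10 genes, stood at -1.36 in RD and 0.10 in JR1. It was listed at 0 in JR1 shSCR and had 0.07 TPM in JR1 shSKP2.2, so the value in JR1 is that of a gene near 0. CKMT1B, its near copy, stood at -1.58 in RD and -0.15 in JR1, and the TPM of these genes are uncertain one by one. ACACB stood at -0.0313 in RD and 0.0601 in JR1. Each line has 1 library per condition, so the differences between the lines were not tested. Other genes of the lists also had opposite signs, such as HADH, an enzyme of fatty acid oxidation, at -0.57 in RD and 0.36 in JR1. The 10 genes themselves had the same sign in both lines with TPM as deposited.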

How the results depend on the processing

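The number of reads is unknown and each group is 1 library, so no spread between replicates is available. Each change pairs shSKP2.2 with shSCR of the same line, but there are no replicate pairs, since each line and condition has 1 library. A fit over both lines with the line as a block would leave 1 residual degree of freedom and was not run. The median change of the 10 genes, 0.18 in RD and 0.41 in JR1, was 0.71 and 0.83 with 0.1 TPM added, 0.45 and 0.62 after centring, and 0.47 and 0.72 after rescaling. With a minimum mean of 5 TPM, which keeps CKM, CKB, ENO3 and PFKM, it turned to -0.20 and -0.36, since 3 of these 4 genes were lower. The number of the 10 genes higher by at least 2-fold, 1 in RD and 3 in JR1, was 4 and 5 with 0.1 TPM added, 2 and 4 after centring, 3 and 4 after rescaling, 0 and 1 with the minimum of 5 TPM, and 2 and 4 with a limit of 1.5-fold. These medians and counts take in all 10 genes, so that leaving out the filter could not alter them. The counts with 0.1 TPM added include CKMT2, whose levels are too low to read a direction from. Shares of all tested genes past the limit were counted as deposited and after rescaling, but not for the other settings. The change of CKB in RD turned to 0.14 after centring and 0.27 after rescaling. That of PFKM in RD turned to 0.0017 and 0.12, and in JR1 to 0.023 after rescaling. The log2 difference of CKB between the lines in shSKP2.2 turned to 0.0076 after rescaling. The median over the 7 lists, -0.28 in RD and -0.27 in JR1, was -0.34 and -0.32 with 0.1 TPM added, -0.0074 and -0.053 after centring, 0.058 and -0.032 after rescaling, -0.26 and -0.30 with the minimum of 5 TPM, and -0.19 and -0.21 without a filter. The median log2 difference of the 10 genes between JR1 and RD, 0.36 in shSCR and 0.71 in shSKP2.2, was 0.42 and 1.19 with 0.1 TPM added and 0.58 and 1.15 after rescaling. The share of the muscle isoform was higher in 5 of 6 families in each line, also with 1 TPM added to each isoform. Such an addition could not turn a share where the isoform was higher and the rest of its family lower, as for CKM, PYGM, PGAM2 and AMPD1. In RD the share of PGAM2 rests on 0.16 and 0.26 TPM, too low to read a direction from. Changes of single genes under 1 TPM (CKMT2, PGAM2, AMPD1 and the CD36 controls) depend most on the added constant.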

Other observations

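Other genes of glycogen handling were read after their values were seen. PPP1R3B and PPP1R3C, subunits that bring protein phosphatase 1 to glycogen, were higher in the depleted library of each line: PPP1R3B went in RD from 5.55 to 8.20 TPM and in JR1 from 7.08 to 12.0 TPM, and PPP1R3C went from 20.3 to 25.1 TPM and from 14.1 to 23.5 TPM. PPP1R3D, of the same family, was lower, at a change of -0.83 in RD and -0.97 in JR1. PPP1R3A, the subunit of skeletal muscle, was at most 0.01 TPM in RD and went from a listed 0 to 0.38 TPM in JR1. PHKB, a regulatory subunit of the kinase that activates glycogen phosphorylase, went in RD from 8.41 to 3.10 TPM and in JR1 from 7.06 to 2.63 TPM, and its change was -0.95 and -1.04 on rescaled TPM. GAA, the lysosomal enzyme that degrades glycogen, was lower in both depleted libraries, at a change of -0.89 and -1.04.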
